A study of Homo sapiens with 45 samples.

Results

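The Mediator complex relays signals from DNA-bound transcription factors to RNA polymerase II. Its 32 human genes considered here were chosen by name, 29 MED genes together with CDK8, CDK19 and CCNC, and their rows were read from gene count tables that each list 60624 genes. By textbook assignment 11 of them encode the head (MED6, MED8, MED11, MED17, MED18, MED20, MED22, MED27, MED28, MED29 and MED30), 9 the middle (MED1, MED4, MED7, MED9, MED10, MED19, MED21, MED26 and MED31) and 5 the tail (MED15, MED16, MED23, MED24 and MED25). MED14 is the scaffold that holds these parts together. The remaining 6 genes (CDK8, CDK19, CCNC, MED12, MED13 and MED13L) encode the dissociable kinase module, in which the paralogues CDK8 and CDK19 are alternative kinases and MED13 and MED13L are alternative links to the core.

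The libraries were prepared from T47D, an established line of human luminal breast cancer cells that express oestrogen receptor, for a study of ZHX2, a zinc finger and homeobox transcription factor, under low oxygen. RNA sequencing gave 45 libraries in 15 groups of 3, deposited as 4 separate count tables. The shRNA table holds shZHX2 cells in hypoxia, shCtrl cells in hypoxia and shCtrl cells in normoxia. The hexanediol table holds hypoxic cells labelled as control, with 0.5% and with 1% 1,6-hexanediol, an alcohol that dissolves many protein condensates, and gives no genotype. The rescue table holds hypoxic shZHX2 cells that carry constructs labelled PA, SA or WT, hypoxic shZHX2 cells with vector, and hypoxic shCtrl cells with vector; the labels spell out none of these constructs. The sgRNA table holds hypoxic sgZHX2 and sgCtrl cells and hypoxic teton_sgZHX2 and teton_control cells; the labels give neither the editing system nor an inducer. All groups were grown in RPMI medium, with cells selected by hygromycin or puromycin after lentivirus infection. The labels state neither the oxygen level, nor the hours of hypoxia, nor that replicates came from separate cultures. The p-values therefore rest on differences between these libraries, which may be technical.

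Mediator bridges activators to the polymerase at promoters and enhancers. Its middle subunit MED1 contacts nuclear receptors, oestrogen receptor among them, and is known for a role in luminal breast cancer. Its kinase module binds the core reversibly and can block or favour the start of transcription, and in human colorectal cancer cells CDK8 is known as a coactivator of HIF1A, the oxygen-regulated transcription factor. MED1 is also known to form condensates that 1,6-hexanediol dissolves.

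Depth was 14111216 to 27217814 counts per library, and levels are given as CPM, counts over a library size scaled within the table. No level was tested between tables, and values of different tables that stand side by side below are descriptive only. ZHX2 itself averaged 5.15 CPM in shZHX2 hypoxia, against 18.8 CPM in shCtrl hypoxia, and 6.86 CPM in shZHX2 vector, against 31.99 CPM in shCtrl vector. In the guide libraries ZHX2 mRNA was no lower: it averaged 49.6 CPM in sgZHX2, against 45.1 CPM in sgCtrl, which does not check the edit, since a cut gene can still be transcribed. All 10 luminal markers examined were above 0 in every table. Their summed level was 60200 to 60700 CPM in hypoxia, against 23600 to 25300 CPM in normoxia. It was 4520 to 4620 CPM in 1% hexanediol, against 28000 to 31100 CPM in the hexanediol control. KRT8, KRT18 and KRT19 made up most of the sum in the shRNA and rescue libraries. KRT8 ran from 12400 to 35500 CPM in the former and from 16200 to 25800 CPM in the latter. No marker outside these keratins passed 1610 CPM in either. In the hexanediol libraries KRT8 ran from 1710 to 17000 CPM. EPCAM (380 to 467 CPM) and CDH1 (415 to 536 CPM) stayed in narrow ranges there, and the other markers ranged more widely. The basal keratin KRT17 reached 1180 to 2030 CPM in the rescue libraries and 597 to 1690 CPM in the sgRNA libraries, but at most 2.04 CPM in the other libraries. Mitochondrially encoded genes took 9.12 to 9.57% of the counts in hypoxia, against 4.55 to 4.76% in normoxia. CA9, a hypoxia-induced carbonic anhydrase, stood at 23.0 to 24.4 CPM in hypoxic shCtrl cells of the shRNA table and at no more than 1.42 CPM in the hexanediol control, although both are labelled hypoxia. The second libraries of both hexanediol doses stood apart: NDRG1, a hypoxia-induced gene, had 26.5 CPM in the second 1% library and 24.8 CPM in the second 0.5% library, against 122 to 264 CPM in their sister libraries. How far any of these features contributes to the Mediator values below was not tested. In such bulk libraries a change in the mix of cells and a change in RNA per cell cannot be told apart.

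All 32 members passed the filter on low counts in every table. Per kilobase of their longest transcript, levels in normoxia ran highest for MED19 (36.0 ± 0.045 CPM per kb, SD, n = 3), MED16 (35.5 ± 1.06) and MED22 (33.3 ± 0.39). MED19 and MED16 did not differ beyond their spread, so their order is not resolved. In hypoxia the leading members were MED16 (57.8 ± 1.69 CPM per kb, SD, n = 3), MED22 (43.3 ± 0.42) and MED19 (37.3 ± 0.43), whose ranges did not overlap. A different set led in the hexanediol control, with MED4 at 59.5 ± 3.12 CPM per kb, MED13L at 49.7 ± 4.02 and MED7 at 34.1 ± 4.35 (SD, n = 3). MED7 and MED1 (32.2 ± 2.19) overlapped, so which of them comes next is not resolved. MED17, a head subunit that activators contact, was the lowest member in shZHX2 vector at 0.293 ± 0.050 CPM per kb (SD, n = 3). MED12L, the paralogue of MED12 that is not a member here, stood at 0.354 ± 0.059 CPM per kb in the same group (SD, n = 3). Reads that match both genes of a paralogue pair (CDK8 and CDK19, MED12 and MED12L, MED13 and MED13L) could be split between them, and how they were counted is not given. Several members also share exon sequence with a neighbouring gene, 58.3% of exon bases for MED31, 50.1% for MED26, 36.9% for MED11 and 32.1% for MED28, so part of their counts may come from that neighbour.

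**Figure D1:**
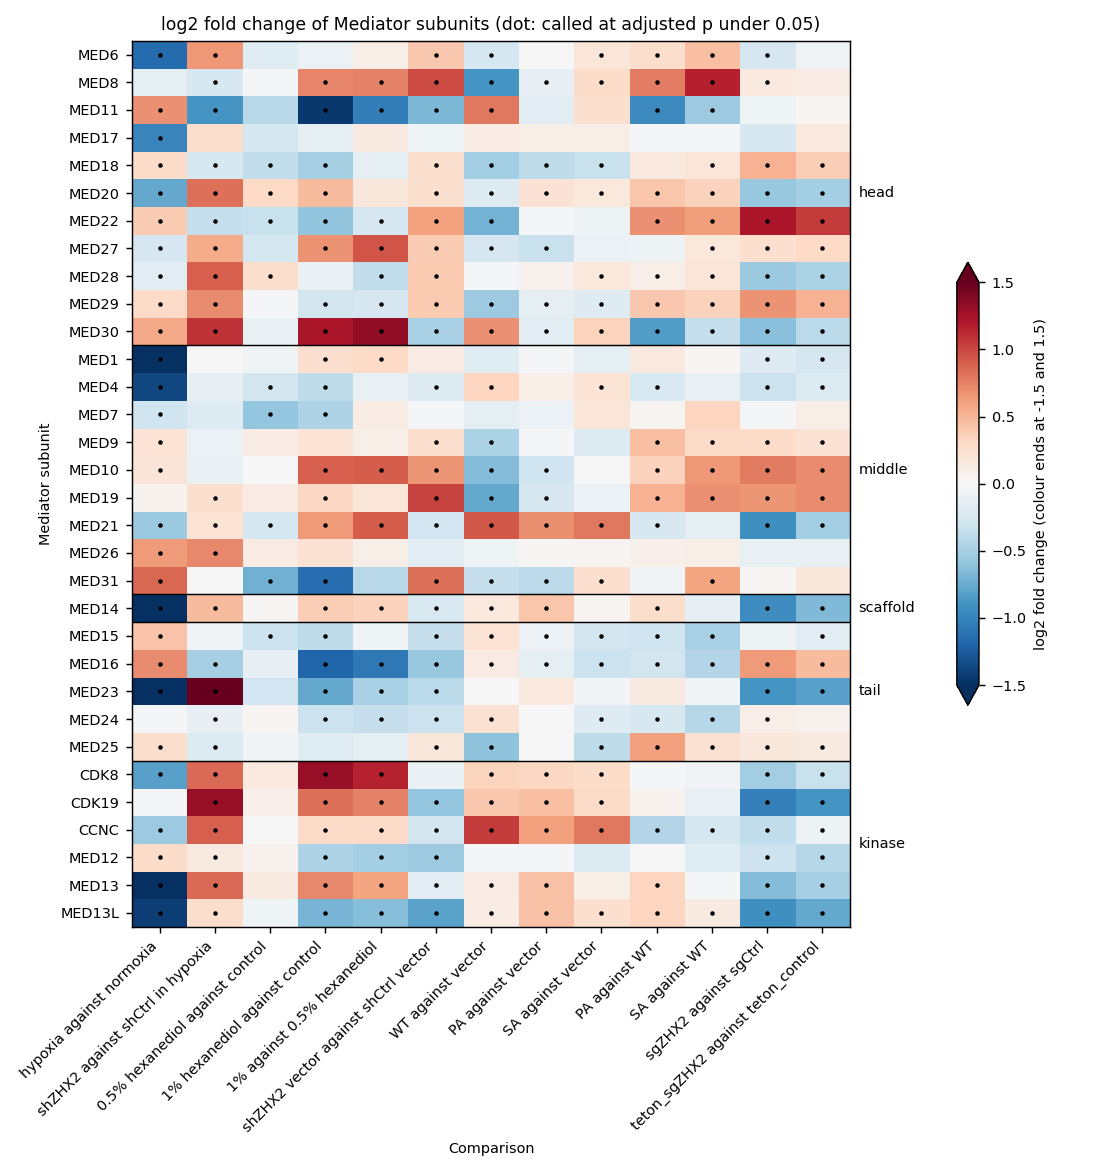
Log2 fold change of the 32 Mediator members (rows, grouped by module) in each comparison (columns); colour runs from lower to higher in the first-named group and a dot marks an adjusted p under 0.05. The kinase rows are coloured as higher in shZHX2 of the shRNA table, with 6 of 6 called, and as lower in both guide comparisons, with 6 of 6 called lower in each, although in teton_sgZHX2 the call of CCNC was lost with DESeq2 and under each other scaling, filter or correction tried.

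Hypoxia against normoxia, both in shCtrl cells, asks how low oxygen changed these mRNAs. The members that fell at least 2-fold were the kinase-module links MED13 and MED13L, the nuclear receptor contact MED1, the tail subunit MED23, the scaffold MED14, the middle subunit MED4 and the head subunit MED6, and their number matched the share of all genes that fell as far. Of the 32 members, 13 rose and 15 fell at an adjusted p under 0.05 by edgeR's quasi-likelihood test, where 43.1% of all genes tested rose and 36.8% fell. The members' shares were 40.6% higher and 46.9% lower, and their median log2 fold change was -0.088, against 0.12 over all genes. Changes of at least 2-fold were 0 higher and 7 lower among the members, against 15.3% higher and 21.8% lower of all genes, so the 21.9% of members that fell at least 2-fold matched the background. With no composition scaling, 2 members rose and 26 fell, a scaling that shifts the all-gene median by -0.49 (log2). Over all genes 3385 then rose and 8061 fell.

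The largest falls came first from the kinase module and the middle. MED13 (chr17:61942605-62065282, minus strand, GENCODE 29 on GRCh38), which ties the kinase module to the core, had 6.25, 5.95 and 5.72 CPM in hypoxia, against 42.02, 42.2 and 44.7 CPM in normoxia (log2 fold change -2.85, SE 0.085, adjusted p = 1.95e-37). MED1 had 7.62, 8.35 and 6.81 CPM in hypoxia, against 39.9, 47.2 and 45.4 CPM in normoxia (log2 fold change -2.54, SE 0.087, adjusted p = 1.63e-34). Every hypoxic library of both genes lay far below the lowest normoxic one. MED23, a tail subunit through which ELK1 acts, had 0.261, 0.506 and 0.182 CPM in hypoxia, against 1.35, 1.84 and 1.995 CPM in normoxia (log2 fold change -2.44, SE 0.40, adjusted p = 1.58e-07). It rested on few reads, 4, 8 and 3 counts in hypoxia, against 29, 42 and 46 in normoxia. MED14 (chrX:40648306-40735858, minus strand) had 12.7, 13.03 and 15.8 CPM in hypoxia, against 39.9, 40.1 and 39.1 CPM in normoxia (log2 fold change -1.51, SE 0.074, adjusted p = 6.19e-27), so all hypoxic libraries of the scaffold were lower. MED13L, the second link, had 57.5, 58.6 and 56.8 CPM in hypoxia, against 147, 152 and 160.2 CPM in normoxia (log2 fold change -1.41, SE 0.043, adjusted p = 8.36e-37). The kinase CDK8 had 5.797, 5.88 and 5.72 CPM in hypoxia, against 10.2, 10.5 and 9.84 CPM in normoxia (log2 fold change -0.81, SE 0.12, adjusted p = 2.05e-08), again without overlap, and its cyclin CCNC had 11.3, 10.3 and 9.18 CPM in hypoxia, against 13.8, 14.4 and 16.6 CPM in normoxia (log2 fold change -0.55, SE 0.099). The alternative kinase CDK19 did not pass the test, with means of 4.22 CPM in hypoxia and 4.31 CPM in normoxia.

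The rises were smaller, none reaching 2-fold, and were spread over the head, middle, tail and kinase module. MED31, a small conserved middle subunit, had 5.86, 6.45 and 6.14 CPM in hypoxia, against 2.84, 3.69 and 3.64 CPM in normoxia (log2 fold change 0.86, SE 0.16, adjusted p = 1.88e-06). MED16, a tail subunit, had 202, 191 and 199.6 CPM in hypoxia, against 125, 118 and 121 CPM in normoxia (log2 fold change 0.71, SE 0.034, adjusted p = 4.42e-27). The groups stayed apart for both genes, although 58.3% of the exon bases of MED31 also belong to its neighbour TXNDC17. MED11, a head subunit, had 8.79, 7.84 and 8.33 CPM in hypoxia, against 4.75, 6.102 and 4.68 CPM in normoxia (log2 fold change 0.68, SE 0.14). MED26, which recruits elongation factors, had 12.1, 11.6 and 9.49 CPM in hypoxia, against 6.701, 7.02 and 7.502 CPM in normoxia (log2 fold change 0.64, SE 0.11). MED12, which activates CDK8 together with cyclin C, was the only kinase-module gene called higher, with 41.8, 46.6 and 43.5 CPM in hypoxia, against 35.97, 34.5 and 38.3 CPM in normoxia (log2 fold change 0.28, SE 0.059); with no composition scaling it was lower (log2 fold change -0.21). By module, the head had 5 genes higher and 5 lower, the middle 4 and 4, the tail 3 and 1, and the kinase module 1 and 4, with a median of -0.68 on the log2 scale. MED8, MED19, MED24 and CDK19 were not called. Without composition scaling MED9, MED10, MED18, MED22, MED25 and MED29 were also called lower and the tail's MED15 lost its call.

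**Figure D2:**
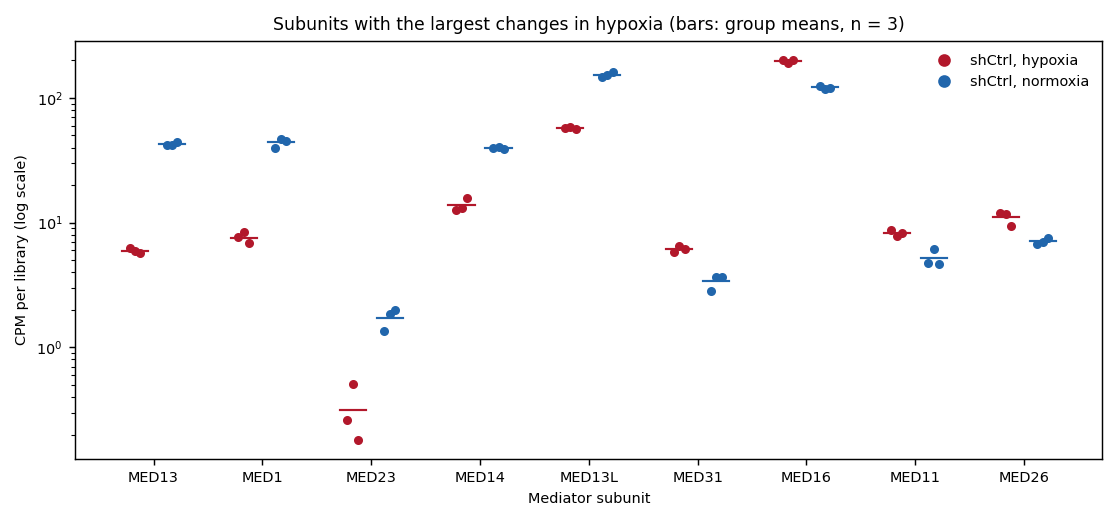
CPM per library, on a log axis, of MED13, MED1, MED23, MED14, MED13L, MED31, MED16, MED11 and MED26, with hypoxia left of normoxia and a bar at each group mean (n = 3). Hypoxic libraries of MED13 and MED1 lie at 8.35 CPM or lower and normoxic ones at 39.9 CPM or higher, while MED31 and MED16 lie higher in hypoxia.

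The hypoxia values followed the base composition of the transcripts. Across all genes the rank correlation of the log2 fold change with GC content was 0.69, and across the 32 members, which share the same libraries, it was 0.68. Of 10 equal bins of genes by GC content, the lowest (median 37.1%) had a median log2 fold change of -1.45 and the highest (median 64.5%) had 0.84. After each library was corrected for GC content and length, those medians were -0.095 and -0.19, and 8 members were called higher and 17 lower. Over all 14903 genes tested, that fit called 4349 higher and 6252 lower, so the lean to lower calls was not particular to the members. Of the 28 calls, 11 kept their direction and call, 15 changed sign, and 10 of those 15 were called in the opposite direction. Changes of sign were not counted over all genes. MED1 kept most of its fall (-2.08 on the log2 scale, adjusted p = 3.43e-31), while MED23 was at -1.33 and MED13 at -1.24, both still called lower. MED14 was left with -0.21 and MED13L with -0.29, both still called lower, whereas MED4 (-0.18, adjusted p = 0.221) and MED6 (-0.15, adjusted p = 0.323) lost their calls. Among those that changed sign MED16 was lower (-0.31), and CCNC was higher (0.58), whereas MED31 stayed higher and by more (1.62). MED31 higher and MED1, MED13, MED13L, MED14, MED20, MED23, MED27 and CDK8 lower were the 9 calls kept under every alternative run, leave-one-out included. Whether the GC trend arose in the cells or in the libraries was not tested.

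**Figure D3:**
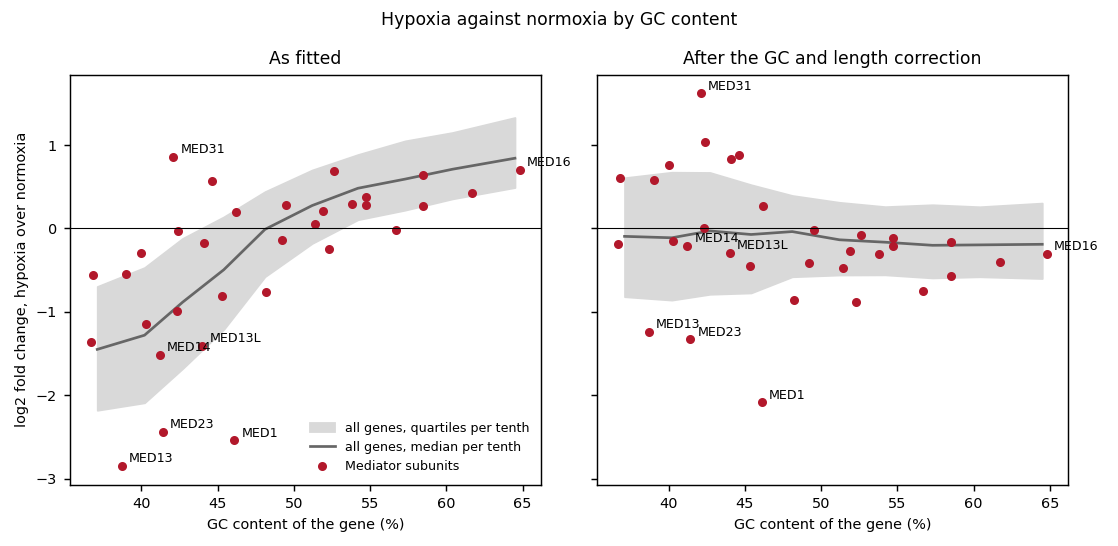
Log2 fold change in hypoxia against normoxia (vertical axis) by GC content of the transcript in percent (horizontal axis) for the 32 members, before and after correction, over the median (line) and quartiles (band) of 10 equal GC bins of all genes. Before correction the low-GC members MED13 and MED14 lie low and the high-GC member MED16 lies high; after it the lowest bin has a median of -0.095 and the highest -0.19, and MED1 and MED13 remain low.

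The promoters of 24 members had a window in the RefSeq table (GRCh38.p14), 29 windows in all, each from 250 bases before to 50 bases after a transcript start. Hypoxia-inducible factors bind a core of ACGTG or GCGTG, which was searched on both strands. At least 1 core stood in 18 of the 29 member windows (62.1%) and in 48.4% of all 35116 windows; ACGTG stood in 20.7% of member windows and 21.4% of all, and GCGTG in 44.8% and 36.5%. The 4 windows shown belong to genes that fell or rose in hypoxia, with each core in capitals on the strand shown, so that one on the other strand appears as its reverse complement; the capitals CACGTG hold ACGTG on both strands. MED1 (chr17:39451214-39451513, minus strand) held no core, MED13L (chr12:116277644-116277943, minus strand) and CDK8 (chr13:26253879-26254178, plus strand) each held a CACGTG, counted as 2 matches, and MED31 (chr17:6651556-6651855, minus strand) held 1 match. The table has no window for MED13.
MED1: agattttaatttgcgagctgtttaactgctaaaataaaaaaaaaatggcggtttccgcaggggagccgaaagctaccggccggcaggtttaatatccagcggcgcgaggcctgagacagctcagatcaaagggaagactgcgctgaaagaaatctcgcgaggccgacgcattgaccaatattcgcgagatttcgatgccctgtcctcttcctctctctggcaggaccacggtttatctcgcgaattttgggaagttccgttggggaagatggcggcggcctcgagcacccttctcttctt
MED13L: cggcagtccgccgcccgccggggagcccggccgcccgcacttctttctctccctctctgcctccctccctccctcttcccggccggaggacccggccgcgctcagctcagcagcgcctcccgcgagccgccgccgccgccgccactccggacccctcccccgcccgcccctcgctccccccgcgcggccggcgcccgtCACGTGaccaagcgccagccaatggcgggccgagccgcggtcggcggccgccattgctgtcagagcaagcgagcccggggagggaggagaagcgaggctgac
CDK8: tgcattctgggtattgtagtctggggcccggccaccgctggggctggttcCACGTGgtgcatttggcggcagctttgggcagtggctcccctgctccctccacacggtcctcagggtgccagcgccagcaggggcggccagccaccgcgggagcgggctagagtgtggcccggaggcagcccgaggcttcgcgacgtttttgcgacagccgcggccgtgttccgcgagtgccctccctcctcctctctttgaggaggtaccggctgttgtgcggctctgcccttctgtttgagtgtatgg
MED31: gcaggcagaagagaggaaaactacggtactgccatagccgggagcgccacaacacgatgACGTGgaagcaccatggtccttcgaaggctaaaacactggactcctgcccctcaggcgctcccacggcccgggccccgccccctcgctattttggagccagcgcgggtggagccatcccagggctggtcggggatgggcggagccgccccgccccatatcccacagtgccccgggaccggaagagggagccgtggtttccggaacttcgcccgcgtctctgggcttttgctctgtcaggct
These letters describe the windows only. MED1, MED13L and CDK8 were lower and MED31 was higher in hypoxia.

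Knockdown of ZHX2 in hypoxia, set against shCtrl in hypoxia, raised more Mediator mRNAs than it lowered. By edgeR's quasi-likelihood test 17 members rose, against a background of 33.6% of all genes, and 7 fell, against 33.2%. The members' median log2 fold change was 0.22 and that of all genes 0.022. All 6 kinase-module genes rose (median 0.85), the head split 6 higher and 4 lower, the middle had 3 higher and 0 lower, and the tail 1 higher and 3 lower. With no composition scaling the split was 20 higher and 3 lower, a shift of 0.23 in the all-gene median (log2). Over all genes that fit called 7086 higher and 3393 lower. The kinase-module genes rose by unequal amounts, and MED12 only just passed the test. The summed level of the 10 luminal markers was 28200 to 28600 CPM in shZHX2, against 60200 to 60700 CPM in shCtrl, and mitochondrially encoded genes took 11.9 to 12.4% of the counts in shZHX2, against 9.12 to 9.57% in shCtrl; their part in the result was not tested. CDK19 had 9.59, 10.8 and 11.04 CPM in shZHX2, against 4.299, 4.24 and 4.14 CPM in shCtrl (log2 fold change 1.31, SE 0.14, adjusted p = 4.37e-12). CCNC had 20.3, 18.3 and 18.7 CPM in shZHX2, against 11.3, 10.3 and 9.18 CPM in shCtrl (log2 fold change 0.90, SE 0.098, adjusted p = 4.89e-12). CDK8 had 10.1, 11.8 and 9.497 CPM in shZHX2, against 5.797, 5.88 and 5.72 CPM in shCtrl (log2 fold change 0.85, SE 0.12, adjusted p = 1.93e-08). No library of the kinases or of the cyclin overlapped between the groups. MED13 had 10.97, 10.7 and 10.8 CPM in shZHX2, against 6.25, 5.95 and 5.72 CPM in shCtrl (log2 fold change 0.85, SE 0.10, adjusted p = 1.25e-10), with the shZHX2 libraries higher. MED13L had 70, 65.8 and 71.8 CPM in shZHX2, against 57.5, 58.6 and 56.8 CPM in shCtrl (log2 fold change 0.26, SE 0.046), a small rise that lost its call after the GC and length correction (0.063, adjusted p = 0.208). MED12 had 46.2, 48.1 and 49.97 CPM in shZHX2 and 41.8, 46.6 and 43.5 CPM in shCtrl, groups that overlap, and its adjusted p was 0.0454. That call was lost with no filter on low counts, where 5 kinase-module genes were called higher, and in 4 of the 6 fits that left out a library; CDK8, CDK19, CCNC and MED13 were the calls of the module kept in every alternative.

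Outside the kinase module the largest value belonged to MED23, with 1.33, 1.197 and 0.828 CPM in shZHX2, against 0.261, 0.506 and 0.182 CPM in shCtrl (log2 fold change 1.80, SE 0.43, adjusted p = 2.46e-04). Its counts were low, and the shCtrl hypoxia libraries are the same ones that the hypoxia comparison used. MED30, a head subunit found in animals, had 21.1, 21.1 and 20.7 CPM in shZHX2, against 10.2, 9.62 and 9.91 CPM in shCtrl (log2 fold change 1.08, SE 0.096). MED28, another head subunit, had 44.8, 42.2 and 40.9 CPM in shZHX2, against 23.1, 20.6 and 24.7 CPM in shCtrl (log2 fold change 0.90, SE 0.067). Both head genes were higher in each shZHX2 library. MED14 had 19.6, 19.1 and 19.2 CPM in shZHX2, against 12.7, 13.03 and 15.8 CPM in shCtrl (log2 fold change 0.48, SE 0.082). MED1, by contrast, did not pass the test, with means of 7.597 CPM in shZHX2 and 7.59 CPM in shCtrl (adjusted p = 0.984). The falls were led by MED11, with 3.81, 4.298 and 5.41 CPM in shZHX2, against 8.79, 7.84 and 8.33 CPM in shCtrl (log2 fold change -0.88, SE 0.15, adjusted p = 5.45e-07). MED16 had 139.8, 139 and 139.6 CPM in shZHX2, against 202, 191 and 199.6 CPM in shCtrl (log2 fold change -0.50, SE 0.034), and MED22, which pairs with MED11 in the head, had 148, 152 and 146 CPM in shZHX2, against 191, 188 and 187 CPM in shCtrl (log2 fold change -0.34, SE 0.033). MED8, a further head subunit, had 13.5, 13.7 and 14.6 CPM in shZHX2, against 17.9, 16.6 and 15.1 CPM in shCtrl (log2 fold change -0.24, SE 0.09). The call of MED8 was lost with no composition scaling. The groups did not overlap for any of these lower genes. Of the 24 calls, 17 were kept under every alternative, 14 higher and 3 lower; MED24 (log2 fold change -0.12) was called higher with no composition scaling.

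Hexanediol was given to hypoxic cells for 24 h at 0.5% or 1%. At 0.5%, 2 members rose, against 19.4% of all genes, and 7 fell, against 19.6%, by edgeR's quasi-likelihood test. Without composition scaling the split was 4 and 2 among the members and 4564 and 2356 over all genes. The larger values were falls in the middle, MED31 with 2.19, 1.65 and 1.34 CPM in 0.5% hexanediol, against 3.33, 2.85 and 2.41 CPM in the hexanediol control (log2 fold change -0.72, SE 0.23) and MED7, which forms the hinge of the middle with MED21, with 48.95, 57.6 and 58.3 CPM in 0.5% hexanediol, against 75.04, 93.9 and 76.8 CPM in the hexanediol control (log2 fold change -0.58, SE 0.12). The tail's MED15, a contact of sterol-regulatory factors, had 42.9, 39.6 and 43.5 CPM in 0.5% hexanediol, against 52.4, 53.3 and 51.8 CPM in the hexanediol control (log2 fold change -0.32, SE 0.074), and the head's MED20 rose, with 26.6, 25.3 and 25.7 CPM in 0.5% hexanediol, against 22.9, 20.8 and 19.2 CPM in the hexanediol control (log2 fold change 0.30, SE 0.091). MED31 rested on few reads, 34, 25 and 20 counts in 0.5% hexanediol, against 48, 38 and 37 in the hexanediol control. MED7 and MED15 were the only calls kept under every alternative. No kinase-module gene was called at this dose. Leaving out the second library of both doses gave 3 members higher and 10 lower, with CDK19 then among those called higher. Over all genes 4142 were then higher and 4265 lower.

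At 1% hexanediol 13 members rose, against 30.2% of all genes, and 13 fell, against 32.3%. The kinase module split: CDK8, CDK19, CCNC and MED13 rose and MED12 and MED13L fell. CDK8 had 58.97, 47.96 and 55.4 CPM in 1% hexanediol, against 21.6, 23.4 and 20.4 CPM in the hexanediol control (log2 fold change 1.31, SE 0.096, adjusted p = 2.46e-08). CDK19 had 46.5, 36.3 and 44.7 CPM in 1% hexanediol, against 24.04, 21.6 and 26.02 CPM in the hexanediol control (log2 fold change 0.83, SE 0.19, adjusted p = 0.00375), and MED13 had 118, 126 and 115 CPM in 1% hexanediol, against 73.9, 68.2 and 75.7 CPM in the hexanediol control (log2 fold change 0.72, SE 0.079). CCNC, whose change was small, had 56.6, 66.9 and 66.6 CPM in 1% hexanediol, against 54.7, 52.96 and 48.8 CPM in the hexanediol control (log2 fold change 0.28, SE 0.084) and lost its call after the GC and length correction (0.023). Treated libraries of these genes lay above the control ones without overlap. MED13L moved the other way, with 444, 440 and 454 CPM in 1% hexanediol, against 739.6, 661 and 776 CPM in the hexanediol control (log2 fold change -0.70, SE 0.074, adjusted p = 1.06e-06), and MED12 had 19.3, 21.97 and 18.6 CPM in 1% hexanediol, against 29.2, 25.2 and 28.2 CPM in the hexanediol control (log2 fold change -0.46, SE 0.10). The paralogous links thus changed in opposite directions, as did the kinases and their activator MED12. In the head, MED30 had 11.6, 9.89 and 13.9 CPM in 1% hexanediol, against 5.697, 4.495 and 4.89 CPM in the hexanediol control (log2 fold change 1.23, SE 0.15, adjusted p = 6.94e-06) and MED8 had 43.6, 43.3 and 42.1 CPM in 1% hexanediol, against 24.9, 28.3 and 24.8 CPM in the hexanediol control (log2 fold change 0.73, SE 0.082), both higher, while MED11 was lower with 3.09, 4.07 and 3.23 CPM in 1% hexanediol, against 11.5, 9.06 and 7.96 CPM in the hexanediol control (log2 fold change -1.45, SE 0.17, adjusted p = 3.24e-06). Among middle subunits MED10 rose, with 42.5, 42.1 and 44.2 CPM in 1% hexanediol, against 22.2, 23.1 and 23.7 CPM in the hexanediol control (log2 fold change 0.90, SE 0.083). MED31 fell, with 1.38, 1.099 and 1.43 CPM in 1% hexanediol, against 3.33, 2.85 and 2.41 CPM in the hexanediol control (log2 fold change -1.14, SE 0.24). It rested on only 21, 20 and 23 counts in 1% hexanediol.

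None of the 5 tail genes rose at 1% and 4 fell, with a median of -0.39 on the log2 scale, against -0.044 over all genes. MED16 had 9.53, 7.75 and 7.33 CPM in 1% hexanediol, against 18.2, 17.8 and 20.5 CPM in the hexanediol control (log2 fold change -1.20, SE 0.12, adjusted p = 5.24e-07). MED23 had 9.07, 6.92 and 8.08 CPM in 1% hexanediol, against 13.4, 14.1 and 13.3 CPM in the hexanediol control (log2 fold change -0.76, SE 0.12). Both were lower in every treated library, whereas MED15 (log2 fold change -0.39) and MED24 (-0.33) lost their calls after the GC and length correction. MED1 and MED14 were higher by 0.25 and 0.37 on the log2 scale and lost their calls after the same correction. Without the second library of each dose, 12 members were higher and 13 lower, and the kinase module again had 4 higher and 2 lower, with CDK8 at 1.39, CDK19 at 0.93, MED30 at 1.34, MED11 at -1.58, MED16 at -1.16 and MED31 at -1.02 on the log2 scale. With no composition scaling, 14 members were higher and 11 lower, a shift of 0.18 in the all-gene median. Over all genes 6314 were then higher and 4239 lower.

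The doses were also set against each other. This comparison shares its treated libraries with the comparisons against the hexanediol control, so it is no independent repeat of them. At 1%, 11 members were higher than at 0.5%, against 28.3% of all genes, and 9 were lower, against 27.7%. CDK8 had 58.97, 47.96 and 55.4 CPM in 1% hexanediol, against 23.2, 25.8 and 23.6 CPM in 0.5% hexanediol (log2 fold change 1.16, SE 0.095), and MED30 had 11.6, 9.89 and 13.9 CPM in 1% hexanediol, against 5.09, 4.302 and 4.63 CPM in 0.5% hexanediol (log2 fold change 1.33, SE 0.15). The head's MED27 had 6.71, 8.85 and 6.401 CPM in 1% hexanediol, against 3.61, 4.43 and 3.42 CPM in 0.5% hexanediol (log2 fold change 0.94, SE 0.17). The doses did not overlap in these genes or in MED16, which was lower with 9.53, 7.75 and 7.33 CPM in 1% hexanediol, against 17.7, 17.1 and 16.99 CPM in 0.5% hexanediol (log2 fold change -1.08, SE 0.12). CDK8, CDK19, CCNC and MED13 were higher and MED12 and MED13L lower at the higher dose. Without the second libraries 11 members were higher and 10 lower, and the kinase module again had 4 higher and 2 lower. After the GC and length correction it had 2 higher and 2 lower, since CDK19 (0.51, adjusted p = 0.0584) and CCNC (0.0041, adjusted p = 0.972) lost their calls, and 3 higher and 2 lower with the replicate block added to it.

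In the rescue table all cells were hypoxic. Knockdown with vector, against shCtrl with vector, left 13 members higher, where 33.9% of all genes were higher, and 14 lower, where 35.3% were lower. The head leaned upward, with 8 genes higher and 2 lower, and the tail downward, with 1 higher and 4 lower. The kinase module had 0 higher and 5 lower, with a median of -0.41, against -0.012 over all genes. The summed level of the luminal markers was 31600 to 32900 CPM in shZHX2 vector, against 47200 to 48700 CPM in shCtrl vector. That of 5 basal markers was 1990 to 2040 CPM, against 1190 to 1200 CPM. Nearly all of the basal sum was KRT17, at 1180 to 2030 CPM across the rescue libraries. ACTA2 reached 15.9 CPM there, and KRT5, KRT14 and TP63 stayed at or below 0.743 CPM. The part of these markers in the result was not tested. MED19, a middle subunit, had 11.1, 10.4 and 9.84 CPM in shZHX2 vector, against 5.16, 5.59 and 4.76 CPM in shCtrl vector (log2 fold change 1.01, SE 0.12, adjusted p = 4.58e-12). MED8 had 45.3, 47.3 and 47.2 CPM in shZHX2 vector, against 23.5, 22.1 and 25.4 CPM in shCtrl vector (log2 fold change 0.98, SE 0.054, adjusted p = 1.00e-27). Both were higher in every knockdown library. MED31 had 11.4, 14.5 and 12.99 CPM in shZHX2 vector, against 7.26, 6.97 and 7.799 CPM in shCtrl vector (log2 fold change 0.82, SE 0.094), and MED10 had 36.3, 35.9 and 37.7 CPM in shZHX2 vector, against 22.4, 23.5 and 23.5 CPM in shCtrl vector (log2 fold change 0.66, SE 0.059). The kinase-module genes lay lower. MED13L had 67.3, 61.6 and 60.5 CPM in shZHX2 vector, against 106, 111 and 112 CPM in shCtrl vector (log2 fold change -0.80, SE 0.036, adjusted p = 8.90e-33). CDK19 had 20.8, 20.2 and 20.3 CPM in shZHX2 vector, against 30.4, 29.99 and 31.3 CPM in shCtrl vector (log2 fold change -0.58, SE 0.058), and MED12 had 10.2, 10.4 and 10.1 CPM in shZHX2 vector, against 15.03, 14.8 and 14.8 CPM in shCtrl vector (log2 fold change -0.54, SE 0.085). CCNC had 26.2, 25.6 and 24.1 CPM in shZHX2 vector, against 31, 30.4 and 30.1 CPM in shCtrl vector (log2 fold change -0.27, SE 0.053), a smaller fall with no overlap. MED13 had 61.2, 62.1 and 60.2 CPM in shZHX2 vector, against 66.5, 68.4 and 69.9 CPM in shCtrl vector (log2 fold change -0.16, SE 0.039), and after the GC and length correction it was higher instead (0.19). CDK8 did not pass the test, with an adjusted p of 0.136. MED11 had 6.36, 5.92 and 6.17 CPM in shZHX2 vector, against 10.2, 8.88 and 10.3 CPM in shCtrl vector (log2 fold change -0.67, SE 0.10), and MED16 had 69.05, 75.5 and 77.5 CPM in shZHX2 vector, against 118, 107 and 105 CPM in shCtrl vector (log2 fold change -0.56, SE 0.04). MED14 (log2 fold change -0.23) changed sign after the correction (0.079, adjusted p = 0.25).

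The PA, SA and WT constructs in knockdown cells were compared with vector in knockdown cells. The comparisons with vector share its 3 libraries with the knockdown comparison, and those with WT share the WT libraries, so their values are set side by side only. ZHX2 mRNA averaged 54.0 CPM in shZHX2 PA, 80.5 CPM in shZHX2 SA and 72.3 CPM in shZHX2 WT, against 6.86 CPM in shZHX2 vector. WT left 13 members higher, against 35.1% of all genes, and 12 lower, against 34.6%. Without composition scaling WT left 9 members higher and 14 lower, and 4252 and 5731 of all 14302 genes. PA left 8 higher, against 24.7%, and 10 lower, against 22.9%. Without composition scaling PA left 15 members higher and 4 lower, and 5804 and 1794 of all genes, a shift of 0.15 in the all-gene median (log2). SA left 12 higher, against 20.2%, and 6 lower, against 21.5%, and after the GC and length correction 7 higher and 3 lower, in a comparison where the rank correlation with GC content was -0.69 over the members and -0.54 over all genes. The kinase module had 5 genes higher with WT, 5 with PA and 4 with SA, and none lower with any of them; with no composition scaling WT had 3. Mitochondrially encoded genes took 1.16 to 1.26% of the counts with PA, 1.12 to 1.19% with SA and 0.312 to 0.333% with WT, against 0.785 to 0.807% with vector, and the summed luminal markers reached 29800 to 30100 CPM with PA, 33200 to 33600 CPM with SA and 44900 to 45600 CPM with WT, against 31600 to 32900 CPM with vector; their part in the result was not tested. In the head WT left 2 higher and 7 lower, PA 1 and 5, and SA 5 and 2.

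CCNC had 37.3, 39.9 and 39.1 CPM in PA, 44.9, 43.5 and 43.1 CPM in SA and 53.4, 50.9 and 53.1 CPM in WT, against 26.2, 25.6 and 24.1 CPM in vector. Its log2 fold change over vector was 1.05 (SE 0.05, adjusted p = 1.03e-31) with WT, 0.62 (SE 0.051) with PA and 0.79 (SE 0.05) with SA. Every library with a construct lay above every vector library. CDK19 had 26.9, 27.8 and 29.4 CPM in PA, 24.9, 24.9 and 25.04 CPM in SA and 27.9, 26.3 and 26.5 CPM in WT, against 20.8, 20.2 and 20.3 CPM in vector. Its log2 fold change over vector was 0.40 with WT, 0.46 with PA and 0.29 with SA (SE 0.059, 0.058 and 0.058 in that order). CDK8 had 29.4, 30.96 and 32.7 CPM in PA, 30.98, 30.1 and 29.7 CPM in SA and 31.9, 30.8 and 31.7 CPM in WT, against 24.03, 24.1 and 26.7 CPM in vector. The kinases were called higher with each of the 3 constructs, by 0.33, 0.31 and 0.28 for CDK8 with WT, PA and SA. MED13L had 84.96, 84.7 and 86.8 CPM in PA, 75.6, 74.2 and 75.3 CPM in SA and 69.01, 67.4 and 68.4 CPM in WT, against 67.3, 61.6 and 60.5 CPM in vector. MED13 had 85.04, 83.01 and 81.1 CPM in PA, 61.8, 68.1 and 65.6 CPM in SA and 67.3, 66.4 and 66.1 CPM in WT, against 61.2, 62.1 and 60.2 CPM in vector. MED13L was called higher with each construct, at 0.12 with WT, 0.44 with PA and 0.25 with SA on the log2 scale. MED13 was called higher with PA (0.44) and WT (0.12) but not with SA, and after the GC and length correction it was called lower with WT (-0.18). The WT calls of both links ended with no composition scaling (0.019 for MED13L and 0.026 for MED13), and that of MED13L also with DESeq2 and after the correction (0.026). MED12 was called with none of the 3 constructs.

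Outside the kinase module MED21, the partner of MED7 in the hinge, had 23.2, 26.3 and 23.98 CPM in PA, 27.2, 23.8 and 27.8 CPM in SA and 31.3, 27.4 and 27.8 CPM in WT, against 13.9, 16.1 and 15.4 CPM in vector. It was called higher with all 3 constructs (log2 fold change 0.93 with WT, 0.69 with PA and 0.80 with SA). MED14 was called higher with PA, with 33.8, 32.9 and 31.6 CPM in shZHX2 PA, against 25.9, 23.5 and 24.1 CPM in shZHX2 vector (log2 fold change 0.42, SE 0.06), and by 0.16 with WT, where it changed sign after the GC and length correction (-0.077). MED1 was called with no construct. MED11 rose with WT, with 9.83, 11.2 and 10.9 CPM in shZHX2 WT, against 6.36, 5.92 and 6.17 CPM in shZHX2 vector (log2 fold change 0.79, SE 0.10), and MED30 likewise, with 30.7, 30.6 and 29.01 CPM in shZHX2 WT, against 19.9, 19.04 and 17.5 CPM in shZHX2 vector (log2 fold change 0.68, SE 0.063). The WT falls were led by MED8, with 26.5, 23.5 and 25.3 CPM in shZHX2 WT, against 45.3, 47.3 and 47.2 CPM in shZHX2 vector (log2 fold change -0.89, SE 0.054, adjusted p = 2.22e-25). MED19 had 6.85, 5.03 and 6.37 CPM in shZHX2 WT, against 11.1, 10.4 and 9.84 CPM in shZHX2 vector (log2 fold change -0.77, SE 0.11). MED22 had 29.5, 28.4 and 28.3 CPM in shZHX2 WT, against 46.3, 46.5 and 47.8 CPM in shZHX2 vector (log2 fold change -0.70, SE 0.05), and MED10 had 25.1, 24.9 and 19.8 CPM in shZHX2 WT, against 36.3, 35.9 and 37.7 CPM in shZHX2 vector (log2 fold change -0.65, SE 0.059). WT libraries of these 4 genes lay below all vector libraries. With PA the larger falls were MED31 (-0.39), MED18 (-0.38), MED27 (-0.34) and MED10 (-0.30), and with SA they were MED25 (-0.38), MED18 (-0.34), MED16 (-0.32) and MED15 (-0.28), all log2 fold changes. Of these, MED27 with PA and MED16 and MED15 with SA lost their calls after the GC and length correction.

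PA and SA were also set against WT directly. With PA 13 members were higher than with WT, against 33.2% of all genes, and 8 lower, against 33.7%; with no composition scaling 22 were higher and 3 lower. With SA 14 were higher than with WT, against 32.1%, and 6 lower, against 32%. MED8 was higher with both, with 41.6, 41.03 and 45.9 CPM in PA and 57.9, 54.5 and 57.4 CPM in SA, against 26.5, 23.5 and 25.3 CPM in WT (log2 fold change 0.77, SE 0.054 for PA and 1.17, SE 0.053 for SA). Its PA and SA libraries were all above the WT libraries. MED22 had 48.9, 45.3 and 44.8 CPM in PA and 43.9, 43.7 and 45.4 CPM in SA, against 29.5, 28.4 and 28.3 CPM in WT (0.69 and 0.62 on the log2 scale). MED11, its partner, was lower with both, with 5.95, 5.08 and 5.36 CPM in PA and 7.39, 6.72 and 7.65 CPM in SA, against 9.83, 11.2 and 10.9 CPM in WT (-0.96 and -0.55). The head partners MED22 and MED11 thus moved in opposite directions. CCNC was lower with both constructs than with WT, at -0.44 (SE 0.047) with PA and -0.26 (SE 0.046) with SA, the second of which lost its call after the GC and length correction (-0.055). CDK8 and CDK19 passed the test against WT with neither construct. With no composition scaling, however, PA had 5 of the 6 kinase-module genes higher than WT, CDK8 and CDK19 included, and 1 lower, CCNC. The tail genes MED15, MED16 and MED24 were lower with both constructs, at -0.30, -0.27 and -0.24 with PA and at -0.49, -0.44 and -0.42 with SA. With no composition scaling, which shifts the all-gene median by 0.25, none of the 3 was called with PA (-0.054, -0.023 and 0.008 for MED15, MED16 and MED24), and MED11, MED30 and CCNC were the members still lower with PA.

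With guides labelled sgZHX2, cells had 11 members higher than sgCtrl, against 37% of all genes, and 15 lower, against 36.1%. All 6 kinase-module genes fell, with a median of -0.59 on the log2 scale, and the scaffold MED14 fell with them. The summed level of the basal markers was 1670 to 1700 CPM in sgZHX2, against 699 to 716 CPM in sgCtrl. That sum was nearly all KRT17, since KRT5, KRT14, TP63 and ACTA2 reached at most 6.05 CPM in any guide library. Mitochondrially encoded genes took 1.67 to 1.71% of the counts in sgZHX2, against 2.51 to 2.71% in sgCtrl. The part of these features in the result was not tested. CDK19 had 28.6, 28.8 and 29.3 CPM in sgZHX2, against 58.02, 60.2 and 57.9 CPM in sgCtrl (log2 fold change -1.02, SE 0.042, adjusted p = 1.13e-25). MED13L had 132, 129.6 and 127 CPM in sgZHX2, against 239, 246 and 251 CPM in sgCtrl (log2 fold change -0.92, SE 0.029, adjusted p = 1.75e-30), and CDK8 had 40.02, 38 and 37.3 CPM in sgZHX2, against 55.5, 56.8 and 53.1 CPM in sgCtrl (log2 fold change -0.52, SE 0.042, adjusted p = 3.41e-15). Each of these was lower in every sgZHX2 library. MED12 had 14.7, 14.5 and 14.7 CPM in sgZHX2, against 19.1, 16.7 and 18.7 CPM in sgCtrl (log2 fold change -0.31, SE 0.065). MED13 had 146, 137 and 134 CPM in sgZHX2, against 218, 225 and 212 CPM in sgCtrl (log2 fold change -0.65, SE 0.032), and CCNC had 67.4, 61.4 and 64.97 CPM in sgZHX2, against 83.2, 84.1 and 83.3 CPM in sgCtrl (log2 fold change -0.37, SE 0.035). MED13 and CCNC were not called after the GC and length correction (-0.0088 and 0.05), which left 4 of the 6 lower; across the members the rank correlation of the sgZHX2 log2 fold change with GC content was 0.62, and over all genes 0.56. MED14 had 33.6, 33.1 and 31.3 CPM in sgZHX2, against 59.9, 65.2 and 61.3 CPM in sgCtrl (log2 fold change -0.93, SE 0.044, adjusted p = 1.26e-23). MED21 had 16.1, 15.4 and 14.98 CPM in sgZHX2, against 28.7, 30.6 and 28.7 CPM in sgCtrl (log2 fold change -0.92, SE 0.059), and MED23 had 14.1, 13.8 and 15.9 CPM in sgZHX2, against 26.1, 28.2 and 27.6 CPM in sgCtrl (log2 fold change -0.90, SE 0.061). MED1 was -0.20 with overlapping groups, and 0.011 after the correction. The rises were led by MED22, with 59.8, 63.4 and 61.4 CPM in sgZHX2, against 25.2, 26.9 and 26.9 CPM in sgCtrl (log2 fold change 1.22, SE 0.044, adjusted p = 6.15e-28). MED10 had 54.1, 53.5 and 55.02 CPM in sgZHX2, against 30.96, 31.6 and 32.03 CPM in sgCtrl (log2 fold change 0.78, SE 0.046), and MED29, a head subunit, had 59.9, 62.7 and 63.4 CPM in sgZHX2, against 36.99, 38.9 and 40.5 CPM in sgCtrl (log2 fold change 0.68, SE 0.045). MED19 had 13.9, 13.8 and 14.7 CPM in sgZHX2, against 8.43, 8.58 and 9.897 CPM in sgCtrl (log2 fold change 0.66, SE 0.081). The higher genes were separate from sgCtrl in all libraries, and MED16 (log2 fold change 0.64) lost its call after the correction (0.055, adjusted p = 0.17).

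In the teton cells 9 members were higher in teton_sgZHX2 than in teton_control, against 34.4% of all genes, and 15 lower, against 34.7%. All 6 kinase-module genes were called lower, with a median of -0.46, but the call of CCNC (adjusted p = 0.0499) was lost in each of the other 8 settings and in 5 of 6 fits that left out a library, and 5 genes were lower with DESeq2, for example. The basal markers, again nearly all KRT17, summed to 1380 to 1390 CPM in teton_sgZHX2, against 604 to 616 CPM in teton_control. Mitochondrially encoded genes took 1.69 to 1.82% of the counts, against 2.84 to 2.95%. The part of these features in the result was not tested. CDK19 had 31.9, 32.6 and 32.6 CPM in teton_sgZHX2, against 61.3, 58.5 and 61.4 CPM in teton_control (log2 fold change -0.90, SE 0.041, adjusted p = 4.98e-24). MED13L had 148, 149 and 146 CPM in teton_sgZHX2, against 252, 244 and 257 CPM in teton_control (log2 fold change -0.76, SE 0.028), and CDK8 had 42.6, 42.3 and 40.2 CPM in teton_sgZHX2, against 53.3, 53.3 and 51.5 CPM in teton_control (log2 fold change -0.34, SE 0.041). The groups did not overlap in these or in MED13, MED12 and CCNC, whose log2 fold changes were -0.50, -0.42 and -0.076. After the GC and length correction 4 kinase-module genes were lower and CCNC was higher (0.17). MED14 had 38.6, 39.1 and 40.9 CPM in teton_sgZHX2, against 63.8, 60.4 and 62.8 CPM in teton_control (log2 fold change -0.66, SE 0.042), and MED1 was at -0.25, which the correction brought to -0.076. MED23 had 16.3, 16.2 and 15.5 CPM in teton_sgZHX2, against 29.5, 28.4 and 26.7 CPM in teton_control (log2 fold change -0.82, SE 0.058). MED22 rose, with 52.4, 55.5 and 53.9 CPM in teton_sgZHX2, against 26.1, 26.4 and 25.6 CPM in teton_control (log2 fold change 1.05, SE 0.044, adjusted p = 3.33e-25). MED10 and MED19 rose by 0.71 and 0.70 on the log2 scale. Of 32 members, 23 were called in both guide comparisons, 9 higher and 14 lower in each, which is 88.5% of the 26 sgZHX2 calls and 95.8% of the 24 teton calls; these comparisons share no library. Over all genes the same shares were 84.4% of the sgZHX2 calls and 89.3% of the teton calls, so the members' shares lie near the background. Of genes called in both, 99.3% went the same way over all genes, and all 23 members did.

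The guide effects differed in size for some members. The difference, the teton effect minus the sg effect, was called above 0 for 6 members, against 12% of all genes. It was called below 0 for 2, against 8.33%, and was not called for 24. Without composition scaling the split of calls was 7 and 1. MED21, MED14, CCNC, CDK8, MED13L and MED13 fell by less in the teton cells, and MED22 and MED16 rose by less. The differences were between 0.15 and 0.40 on the log2 scale in size, and none of the 8 was called after the GC and length correction.

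**Figure D4:**
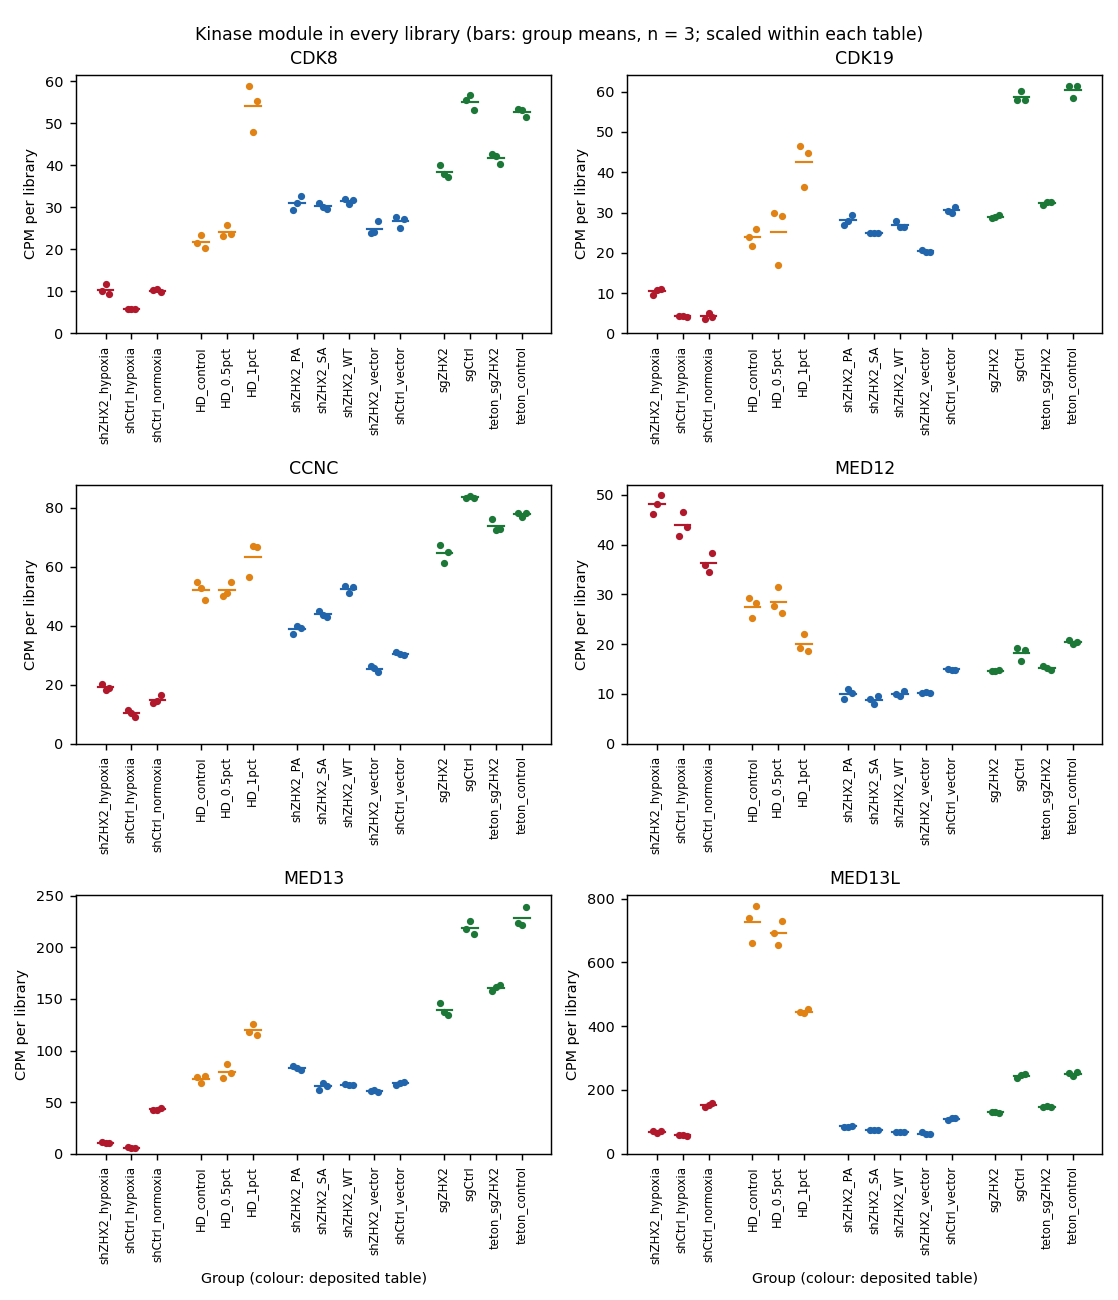
CPM in every library (points, with a bar at each group mean, n = 3) of the 6 kinase-module genes, 1 panel each on its own linear axis from 0, by group, with colours for the 4 tables. CDK19 lies at 28.6 to 29.3 CPM in sgZHX2, against 57.9 to 60.2 CPM in sgCtrl, and CDK8 lies highest in 1% hexanediol within its table, while levels are not comparable between colours.

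Knockdown of ZHX2 in hypoxia was measured in both the shRNA and the rescue tables, with no library in common. The kinase module went opposite ways: 6 higher and 0 lower in the shRNA table, and 0 higher and 5 lower in the rescue table. CDK19 was at 1.31 (SE 0.14) on the log2 scale in the shRNA table and -0.58 (SE 0.058) in the rescue table. CCNC was at 0.90 and -0.27, and MED13L at 0.26 and -0.80, in the same order. The test of each difference was not run, since the tables were normalised apart. Of 22 members called in both, 6 were higher in both (MED6, MED19, MED20, MED27, MED28 and MED29) and 3 lower in both (MED11, MED16 and MED24). Another 9 were higher in the shRNA table and lower in the rescue table, and 4 the other way. Calls that went the same way made up 37.5% of the shRNA calls and 33.3% of the rescue calls, against 45.5% and 44.4% over all genes. Of members called in both, 40.9% went the same way, against 61.1% of the 6725 genes called in both over all genes. After the GC and length correction the kinase module still had 5 higher and 0 lower in the shRNA table and 1 higher and 4 lower in the rescue table. The hypoxia gene NDRG1 split likewise, with 804, 804 and 816 CPM in shZHX2, against 492, 485 and 477 CPM in shCtrl of the shRNA table, and 2715, 2703 and 2722 CPM in shZHX2 vector, against 4979, 5043 and 5047 CPM in shCtrl vector. The rescue table was closer to the guide table: 24 members were called in both the rescue knockdown and sgZHX2, of which 19 (79.2%) went the same way, against 78.5% over all genes. For the shRNA knockdown and sgZHX2 it was 3 of 22 (13.6%), against 40.5% over all genes. What separates the tables was not tested.

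**Figure D5:**
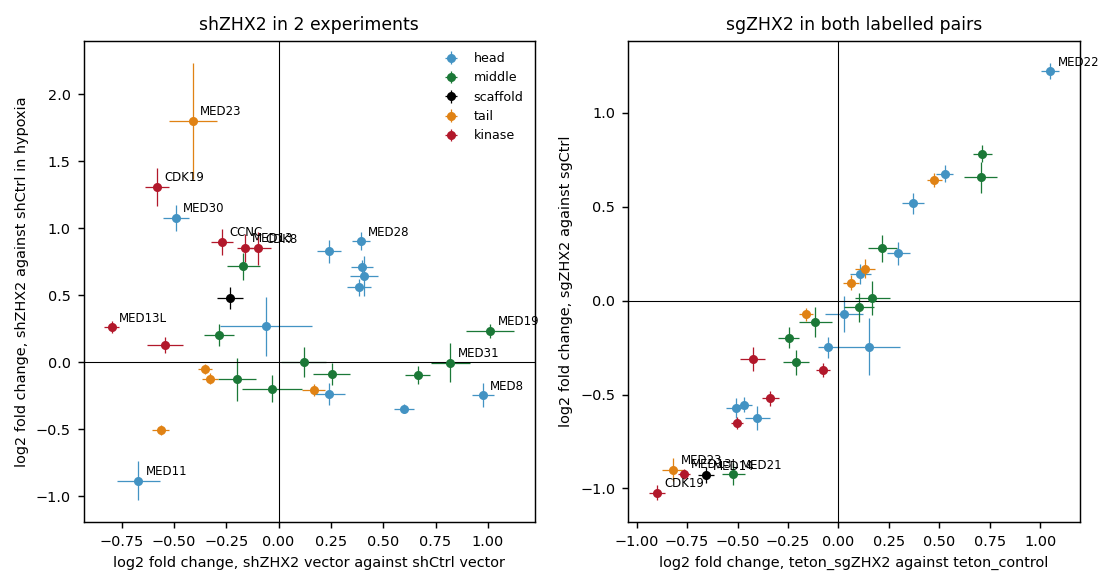
Log2 fold change of each Mediator member in 2 experiments that share no library, one on each axis, with modules in colour; the left panel sets the shRNA knockdown against the rescue knockdown and the right panel sgZHX2 against teton_sgZHX2, with bars of 1 SE either side. In the right panel the 23 members called in both lie in the same-sign quadrants, while in the left panel 9 of 22 lie in them.

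Neighbouring machinery of the promoter was counted from lists of RNA polymerase II subunits, general transcription factors, TFIID subunits (TAFs) and pause-release factors. In hypoxia, where 43.1% of all genes rose and 36.8% fell, 2 of 17 general transcription factors rose and 13 fell (11.8% and 76.5%). Of 15 TAFs 3 rose and 12 fell (20% and 80%). The medians of these lists were -0.93 and -1.11 on the log2 scale, against 0.12 over all genes. TAF9B was at -3.17, TAF2 at -3.10 and GTF2F2, a TFIIF subunit, at -2.08. RNA polymerase II split, 4 of 12 higher and 4 lower (33.3% each). POLR2A, its largest subunit, was at 0.91 and POLR2B, the second largest, at -2.88. The median of the Mediator members, -0.088, lay between that of the RNA polymerase II subunits, 0.079, and that of the general transcription factors. Of 18 pause-release factors 9 rose and 9 fell (50% each), with CCNT2, a cyclin of the pause-release kinase, at -2.16. These list values were not corrected for GC content. In shZHX2 against shCtrl in hypoxia, where 33.6% of all genes rose and 33.2% fell, 9 of 15 TAFs rose and 1 fell (60% and 6.67%). TAF13 was at -1.31, TAF3 at 1.08 and TAF9B at 1.07. There 7 of 17 general transcription factors rose and 5 fell (41.2% and 29.4%), near the shares of all genes. CCNH, the cyclin of the TFIIH kinase, was at 1.52, ERCC2, a TFIIH helicase, at -1.36 and GTF2E1, a TFIIE subunit, at 0.87. Of 12 RNA polymerase II subunits 4 rose and 5 fell (33.3% and 41.7%). Of 18 pause-release factors 8 rose and 6 fell (44.4% and 33.3%). In sgZHX2, where 37% of all genes rose and 36.1% fell, 2 of 15 TAFs rose and 8 fell (13.3% and 53.3%), with TAF9B at -1.83. Of 17 general transcription factors 4 rose and 10 fell (23.5% and 58.8%). MNAT1, which assembles the TFIIH kinase, was at -1.15 and CCNH at -0.91. HEXIM1, the inhibitor of the pause-release kinase, was at 1.44, in a list where 7 of 18 rose and 9 fell (38.9% and 50%). RNA polymerase II subunits went the other way, with 8 of 12 higher and 4 lower (66.7% and 33.3%). At 1% hexanediol, where 30.2% of all genes rose and 32.3% fell, 11 of 17 general transcription factors rose and 3 fell (64.7% and 17.6%). Of 11 RNA polymerase II subunits 1 rose and 6 fell (9.09% and 54.5%), with POLR2L at -1.62. Of 15 TAFs 6 rose and 4 fell (40% and 26.7%), and of 18 pause-release factors 9 and 6 (50% and 33.3%). In shZHX2 vector against shCtrl vector 33.9% of all genes rose and 35.3% fell. There 8 of 12 RNA polymerase II subunits rose and 3 fell (66.7% and 25%), with POLR2C at 1.05. General transcription factors leaned the other way, with 3 of 17 higher and 8 lower (17.6% and 47.1%). Of 15 TAFs 4 rose and 5 fell (26.7% and 33.3%), and of 19 pause-release factors 5 and 8 (26.3% and 42.1%).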

How the data were processed

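Gene counts came from polyA RNA of 45 T47D libraries in 4 tables of 9, 9, 15 and 12 libraries. The values are the authors' deposited whole-number read counts per gene, not normalised, and HISAT2, featureCounts, FastQC, DESeq2 and hg38 are named in the submitters' processing notes without versions; the sources used here do not give strand setting, annotation or multi-mapping rule. Ensembl identifiers were matched to symbols for 60370 of 60624 genes. Each table was fitted alone with edgeR 4.0.16 in R 4.3.3 (filterByExpr, TMM scaling, robust quasi-likelihood F-tests over all groups of the table), with Benjamini-Hochberg adjustment over the 14903, 16840, 14302 and 15781 genes tested in the shRNA, hexanediol, rescue and sgRNA tables. A member was called at an adjusted p under 0.05. CPM used TMM-scaled library sizes, a fold change was set over the second-named group, and its SE was derived from the F statistic. The common biological coefficient of variation was 4.15%, 10.2%, 3.16% and 2.81% in that order, so small changes could pass the test. GC content, length, exon sharing and positions came from GENCODE 29, and promoter windows from RefSeq.

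The alternatives were DESeq2 1.42.0, RLE size factors, library size only, no low-count filter, compared groups only, a replicate block, a GC and length correction (natural splines with 5 degrees of freedom, per library, also with the block), leaving out each library, and leaving out the second library of both hexanediol doses. Same-numbered libraries had every correlation over 0.1 in the 1% against 0.5% hexanediol comparison alone (0.12, 0.32 and 0.12). There the block by itself left the members at 11 higher and 9 lower. Added to the GC and length correction, it moved them from 8 higher and 7 lower to 11 and 7. Differently numbered libraries of that comparison correlated up to 0.17, and 2 of 6 libraries correlated best with their own number. In SA against WT and in sgZHX2 against sgCtrl 5 of 6 did, at same-number correlations of no more than 0.0201. Whether the numbers pair libraries is therefore not settled. No pair of replicates agreed within sampling noise, the lowest chi-square per degree of freedom being 1.7. The model was checked on simulated counts. Members, modules and lists were chosen with earlier results of these data known. Any member could be named; values in every library were given for MED1, MED14 and the kinase module where called, for the 4 largest rises and falls where room allowed, and up to 3 genes of each list. Protein sequences were not used here.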

Additional observations from a re-analysis of the deposited data

Results flagged for a closer look

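For 8 members the change in teton_sgZHX2 against teton_control differed from that in sgZHX2 against sgCtrl by an interaction term in edgeR's quasi-likelihood fit, at an adjusted p under 0.05. The teton effect minus the sg effect was 0.40 for MED21, 0.29 for CCNC, 0.27 for MED14, 0.18 for CDK8, 0.16 for MED13L and 0.15 for MED13 on the log2 scale, each of which was lower in both experiments and by less in the teton cells. It was -0.17 for MED22 and -0.17 for MED16, which were higher in both and by less in the teton cells. None of the 8 was called after the GC and length correction. MED22, MED16 and CDK8 also lost their calls when single libraries were left out, keeping them in 3, 5 and 11 of 12 fits.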

How the results depend on the processing

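Over the 13 comparisons and the difference of the guide effects there were 294 calls of members, of which 182 were kept in every alternative. Their 4211 recomputed values kept direction and call in 3777 cases, kept direction only in 344 and changed direction in 90, of which 44 were called the other way. MED1, MED14, the kinase module where called, and the 4 largest rises and falls of each comparison were followed singly. Of these 160 calls, 115 were kept in every alternative; of their 2313 values, 2155 kept direction and call, 131 kept direction only and 27 changed direction.

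The count of called members moved by over 1.5 times in 3 comparisons. At 0.5% hexanediol it was 9, but 5 with DESeq2 and 4 to 10 with single libraries left out: 5 without the first or the third treated library, 4 without the first or the second control and 5 without the third. The difference of the guide effects fell to 0 after the GC and length correction, with or without the block, against 8. SA against vector fell to 10, with or without the block, against 18. With single libraries left out the counts ran 26 to 28 for hypoxia, 21 to 23 for shZHX2, 24 to 26 for 1% hexanediol, 19 to 20 for 1% against 0.5%, 24 to 27 for shZHX2 vector, 23 to 25 for WT, 13 to 16 for PA, 15 to 19 for SA, 19 to 20 for PA against WT, 18 to 22 for SA against WT, 24 to 26 for sgZHX2, 22 to 24 for teton_sgZHX2 and 6 to 10 for the difference.

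Over all called members, the direction changed after the GC and length correction, without or with the block, for 15 members in hypoxia (10 called the other way), 2 in shZHX2, 2 in shZHX2 vector (1), 3 in WT (1), 2 in SA, 3 in PA against WT (1), 6 in sgZHX2 (3), 3 in teton_sgZHX2 (2) and 1 in the difference; with library size only it changed for 8 in hypoxia (7), 2 in shZHX2 (1), 3 in PA and 3 in PA against WT. Among the calls followed singly the values, with those of the block in parentheses, were as follows on the log2 scale. In hypoxia CCNC was 0.58 (0.58 with the block), MED11 -0.082 (-0.078), MED12 -0.12 (-0.12), MED16 -0.31 (-0.31) and MED26 -0.16 (-0.16); MED12 was -0.21 with library size only. In sgZHX2 CCNC was 0.050 (0.049) and MED1 0.011 (0.0090), and in teton_sgZHX2 CCNC was 0.17 (0.17). In shZHX2 vector MED13 was 0.19 (0.19) and MED14 0.079 (0.079), and in WT they were -0.18 (-0.18) and -0.077 (-0.078). In the difference of the guide effects MED16 was 0.0088 (0.0086). The cause was not tested.

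A further fit took the replicate number as a block, although it is not settled that the numbers pair libraries. It gave 28 called members for hypoxia, 24 for shZHX2, 10 for 0.5% hexanediol, 26 for 1% and 20 for 1% against 0.5%. The rescue counts were 27 for shZHX2 vector, 25 for WT, 17 for PA, 18 for SA, 21 for PA against WT and 20 for SA against WT. The guide counts were 26 for sgZHX2, 23 for teton_sgZHX2 and 8 for the difference. Low counts limit MED23 in the shRNA table and MED31 in the hexanediol table, where MED31 had 20 to 48 counts per library. MED17 had 24 to 42 counts per library in the rescue table.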
